A study of Mus musculus with 6 samples.

Results

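Heat shock chaperones of the cytosol and the mitochondria were followed across 6 RNA-seq libraries of sorted mouse bone marrow cells. The members were 10 genes, taken by symbol from the deposited table of 22475 genes, and all 10 passed the filter on low counts that left 13217 genes for testing. The genes were the Hsp70 proteins Hspa1a, Hspa1b and Hspa8, the Hsp110 protein Hsph1, the Hsp40 protein Dnajb1, the Hsp90 proteins Hsp90aa1 and Hsp90ab1, the mitochondrial chaperonin Hspd1 with its lid Hspe1, and the small heat shock protein Hspb1.

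The cells were Lin- Sca1+ cKit+ cells, a fraction that holds haematopoietic stem and progenitor cells. One group came from FLT3-ITD miR-155-/- mice, called KO here, and the other from FLT3-ITD mice with wild-type miR-155, called control. Both groups carried FLT3-ITD on both alleles, a tandem repeat inside the receptor tyrosine kinase FLT3, so no library represents cells with normal FLT3. Each group had 3 libraries numbered 1 to 3, and each library was a pool of RNA from 3 mice, so an SD or p-value describes the spread between pools and not between single mice. Total RNA had been extracted; age and sex were not given in the labels used here.

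Heat shock proteins bind unfolded stretches of other proteins and help them to fold, refold or be degraded. Hsp70 works in a cycle of ATP binding and release, in which Hsp40 proteins deliver the substrate and Hsp110 proteins exchange the nucleotide, while Hsp90 completes the folding of many kinases and receptors, mutant FLT3 among its known clients. Some of these genes are expressed in every cell (Hspa8, Hsp90ab1), whereas others (Hspa1a, Hspa1b, Hsph1, Dnajb1, Hspb1) are the classical targets of heat shock factor 1, which binds repeated nGAAn units in their promoters and acts within minutes of heat, handling or other stress to proteins.

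Totals lay between 6843129 and 9443615 counts per library, and 3 counts corresponded to 0.326 to 0.460 CPM (counts divided by the TMM-scaled library size). The host transcript of the deleted microRNA, listed as Gm26667, had 4, 14 and 4 counts in KO 1, KO 2 and KO 3, against 33, 48 and 36 in control 1, control 2 and control 3. The 9 genes that mark the sorted fraction, among them Kit, Ly6a and Cd34, were detected in every library. Their summed level was 1817, 2422 and 2387 CPM in KO 1, KO 2 and KO 3, against 1854, 2582 and 2446 CPM in control 1, control 2 and control 3. Library KO 3 stood apart from KO 1 and KO 2 in the chaperone genes, and each member's fold change is therefore also given without it. That library was singled out after its values were seen, and because they were low, so an adjusted p without it describes the other 5 libraries and is no independent test of the groups.

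Hspa1a, Hspa1b, Hsph1 and Dnajb1 were higher in KO 1 and KO 2 than in any control library, at 2.72 to 9.04 times the control mean, and KO 3 was at the control level. The 10 genes together took 0.739%, 0.980% and 0.449% of all counts in KO 1, KO 2 and KO 3, against 0.417%, 0.465% and 0.441% in control 1, control 2 and control 3. The mean share was 0.722% ± 0.266 in KO and 0.441% ± 0.0239 in control libraries (SD, n = 3 each), and the groups overlapped. Of the 10 genes, 0 passed an adjusted p of 0.05 in edgeR's quasi-likelihood test with Benjamini-Hochberg adjustment over all genes tested. In that fit 21 genes passed in either direction (0.159%) and 2 of them were higher (0.0151%). At an unadjusted p under 0.05 in the same edgeR fit, 7 of the 10 were higher, against 1.41% of all genes tested. In bulk RNA, more cells that express a gene and more RNA of it per cell cannot be told apart.

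**Figure D1:**
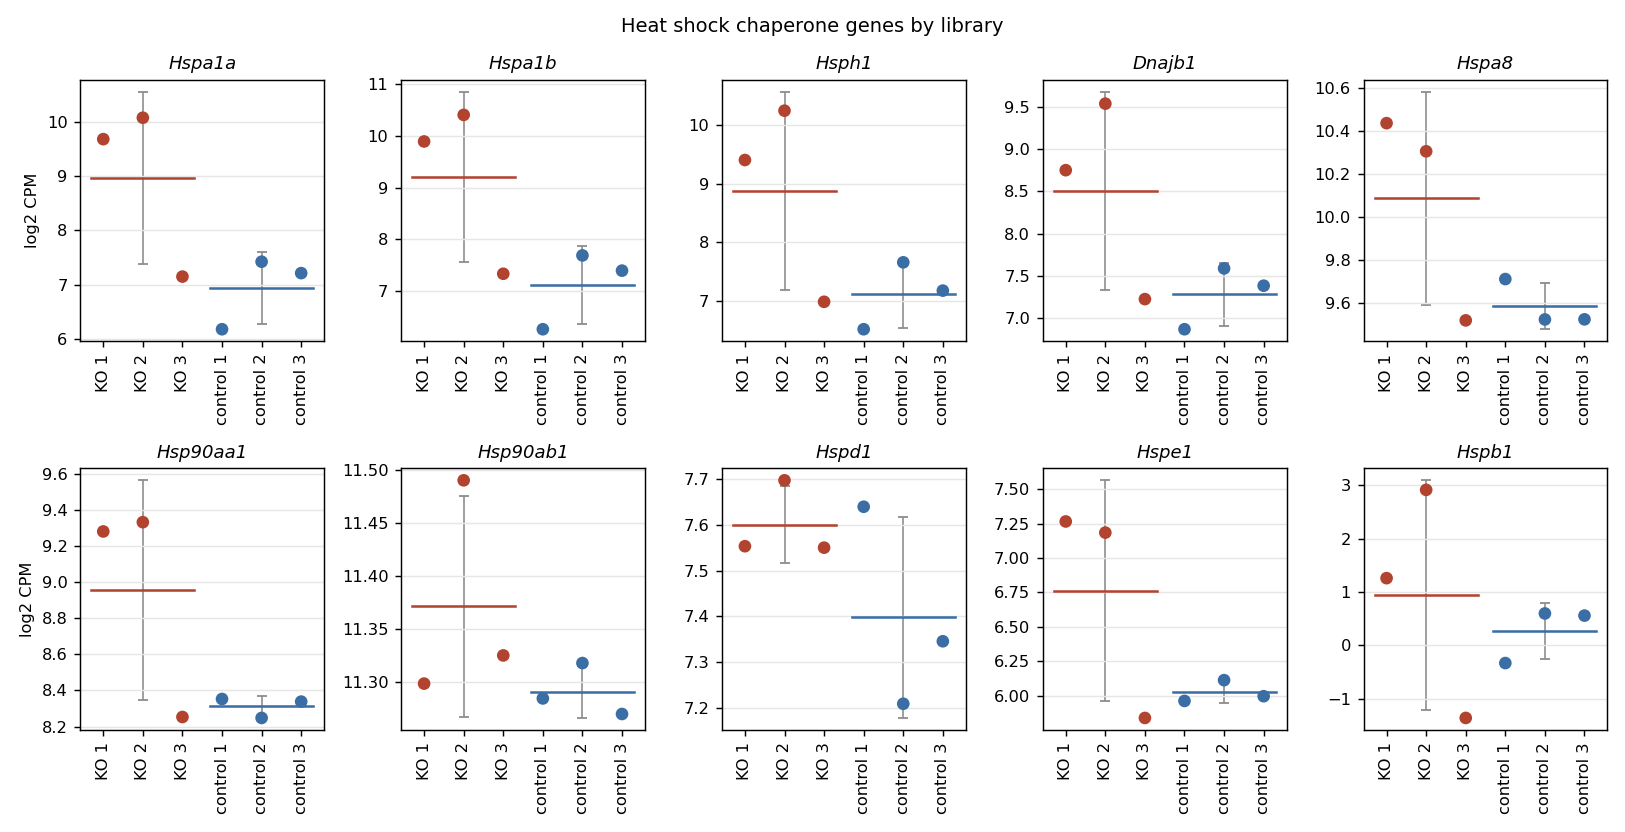
Level of each of the 10 genes in log2 CPM (vertical axes, which differ between panels) in every library (horizontal axes; KO in red, control in blue), with the group mean as a line and its SD as a grey bar (n = 3 each). For Hspa1a, Hspa1b, Hsph1, Dnajb1, Hspa8, Hsp90aa1 and Hspe1 the points of KO 1 and KO 2 lie above all other libraries and that of KO 3 lies among or below the control points.

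Hspa1a and Hspa1b encode the same stress-inducible Hsp70 of the cytosol. They lie side by side on the minus strand of chromosome 17 (GRCm38, 34969190 to 34972156 for Hspa1a and 34956436 to 34959238 for Hspa1b), 9951 bases apart. Of the 50-base windows of the longest Hspa1a transcript, 58.8% also occur in Hspa1b, so their counts depend on how the authors' counting treated shared reads, and the pair is best read as 1 signal. The protein-coding gene Gm20481 overlaps Hspa1a on the opposite strand, and the sources used here do not tell if strand was used in counting.

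The 250 bases before the start of transcription are shown for both genes because they are nearly the same, and their part in the levels was not tested. They were taken from RefSeq (GRCm38.p6), lie at chr17:34972157-34972406 and chr17:34959239-34959488 on the minus strand, and contain no annotated exon. Capitals mark the match to GAANNTTC, a pair of heat shock units facing each other.
Hspa1a: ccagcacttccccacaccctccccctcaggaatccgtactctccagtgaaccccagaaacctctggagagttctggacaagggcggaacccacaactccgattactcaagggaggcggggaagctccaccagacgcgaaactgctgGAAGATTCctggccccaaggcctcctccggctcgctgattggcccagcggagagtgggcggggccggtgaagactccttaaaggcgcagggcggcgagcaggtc
Hspa1b: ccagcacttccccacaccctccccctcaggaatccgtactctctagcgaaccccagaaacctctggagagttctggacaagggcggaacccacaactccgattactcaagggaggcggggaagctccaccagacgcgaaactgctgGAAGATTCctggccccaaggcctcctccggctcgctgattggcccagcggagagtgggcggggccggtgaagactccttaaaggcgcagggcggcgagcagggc
The sequences were identical at 247 of 250 positions (98.8%). From Hspa1a to Hspa1b, counted from 1 at the 5′ end as printed, the differences were C44T, T47C and T249G. The match in capitals was shared.

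Hspa1a had 820, 1078 and 142 CPM in KO 1, KO 2 and KO 3, against 72.1, 171 and 148 CPM in control 1, control 2 and control 3. KO 1 and KO 2 were 6.28 and 8.26 times the control mean, and KO 3 was 1.09 times it. Hspa1b had 950, 1356 and 161 CPM in KO 1, KO 2 and KO 3, against 76.4, 206 and 168 CPM in control 1, control 2 and control 3. KO 3 lay inside the control range for both genes, so the groups overlapped. The controls differed among themselves too, and control 1 was the lowest of all 6 libraries, with control 2 at 2.37 times its level for Hspa1a and 2.70 times for Hspa1b. The log2 fold change over the 3 libraries of each group was 2.38 ± 0.69 (SE) for Hspa1a and 2.45 ± 0.72 (SE) for Hspa1b, with adjusted p of 0.648 and 0.693 in edgeR. Without KO 3 the log2 fold changes were 2.87 ± 0.35 and 2.95 ± 0.40 (SE), with adjusted p of 0.0567 and 0.0664 in edgeR, and without KO 2 they were 1.88 and 1.89 (adjusted p 0.9998 for both). In the authors' deposited table the log2 fold changes were 2.38 and 2.46, with adjusted p of 0.941 and 0.99994. The ratio of Hspa1a to Hspa1b counts stayed between 0.795 and 0.945 over the 6 libraries.

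Hsph1, the Hsp110 nucleotide exchange factor of Hsp70, shared no 50-base window with another gene. It had 678, 1215 and 127 CPM in KO 1, KO 2 and KO 3, against 91.4, 202 and 144 CPM in control 1, control 2 and control 3. Its profile over the libraries followed that of the Hsp70 pair, with KO 2 highest, control 1 lowest and KO 3 inside the control range. Dnajb1, the Hsp40 partner that stimulates the ATPase of Hsp70, had 431, 744 and 149 CPM in KO 1, KO 2 and KO 3, against 116, 192 and 167 CPM in control 1, control 2 and control 3. Again KO 1 and KO 2 lay above every control library and KO 3 within their range. The log2 fold change was 2.21 ± 0.72 (SE) for Hsph1 (adjusted p 0.876 in edgeR) and 1.48 ± 0.51 (SE) for Dnajb1 (adjusted p 0.969). Without KO 3 it was 2.70 ± 0.37 (adjusted p 0.0664) and 1.90 ± 0.28 (SE; adjusted p 0.0855 in edgeR). Without KO 2 it was 1.46 for Hsph1 and 0.87 for Dnajb1 (adjusted p 0.9998 for both in edgeR), so the size of the difference rests in part on that library.

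Hspa8, the constitutive Hsp70 of the cytosol, was abundant and varied less between libraries. It had 1387, 1266 and 733 CPM in KO 1, KO 2 and KO 3, against 838, 736 and 736 CPM in control 1, control 2 and control 3. KO 1 and KO 2 were 1.80 and 1.64 times the control mean, while KO 3 was the lowest of the 6 libraries. On the log2 scale the difference was 0.55 ± 0.22 (SE; adjusted p 0.9995 in edgeR), and 0.79 ± 0.11 (SE; adjusted p 0.0664) without KO 3. Without KO 1 it was 0.38 (adjusted p 0.999995 in edgeR). Of its 50-base windows, 73.2% also occur in other annotated genes, 70% in Gm15459 alone, so part of its reads may have been dropped or split.

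The Hsp90 genes differed in pattern. Hsp90aa1, the stress-inducible isoform, had 621, 644 and 305 CPM in KO 1, KO 2 and KO 3, against 327, 304 and 323 CPM in control 1, control 2 and control 3. The controls stayed within 1.08 times of each other, KO 1 and KO 2 were at 1.95 and 2.03 times their mean, and KO 3 lay among them. Hsp90ab1, the constitutive isoform, had 2518, 2877 and 2565 CPM in KO 1, KO 2 and KO 3, against 2494, 2552 and 2469 CPM in control 1, control 2 and control 3, so KO 1 lay inside the control range. In edgeR the log2 fold change was 0.72 ± 0.26 (SE) for Hsp90aa1 and 0.08 ± 0.10 (SE) for Hsp90ab1 (adjusted p 0.9995 for both). Without KO 3, Hsp90aa1 had 1.00 ± 0.09 (SE; adjusted p 0.0167 in edgeR) and Hsp90ab1 0.11 ± 0.11 (SE; adjusted p 0.907). Without KO 2, Hsp90aa1 had 0.54 and Hsp90ab1 0.02 (adjusted p 0.9998 for both in edgeR). Counts of Hsp90aa1 per count of Hsp90ab1 were 0.247, 0.224 and 0.119 in KO 1, KO 2 and KO 3, against 0.131, 0.119 and 0.131 in control 1, control 2 and control 3. Of the 50-base windows of Hsp90aa1, 58.5% occur elsewhere, mostly in Gm12346, against 4.49% for Hsp90ab1.

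Hspd1 (Hsp60) forms the folding chamber of the mitochondrial chaperonin and Hspe1 (Hsp10) its lid. They are transcribed away from each other from a shared start region on chromosome 1, and their annotated transcripts overlap by 112 bases on opposite strands. A run of 4 alternating heat shock units lies between their RefSeq starts, in the windows of both genes, and is shown on the plus strand at chr1:55088055-55088084 with the units in capitals.
Hspe1: tccgTTCTAGAACCTTCCGGAAggccccgc
These bases also fall in an annotated exon of a longer Hspd1 transcript. Hspe1 had 154, 145 and 56.9 CPM in KO 1, KO 2 and KO 3, against 62.0, 68.9 and 63.5 CPM in control 1, control 2 and control 3. KO 1 and KO 2 were 2.37 and 2.24 times the control mean, and KO 3 was below all controls. Hspd1 had 188, 207 and 187 CPM in KO 1, KO 2 and KO 3, against 199, 148 and 162 CPM in control 1, control 2 and control 3. KO 2 alone exceeded every control library.

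In edgeR the log2 fold change was 0.87 ± 0.33 (SE) for Hspe1 and 0.19 ± 0.12 (SE) for Hspd1 (adjusted p 0.9995 for both). Without KO 3, Hspe1 had 1.21 ± 0.09 (SE; adjusted p 0.0127 in edgeR) and Hspd1 0.22 ± 0.14 (SE; adjusted p 0.833). Without KO 1, Hspe1 had 0.65 (adjusted p 0.999995 in edgeR). Hspd1 had 0.33 without control 1 and 0.10 without control 2. The ratio of Hspe1 to Hspd1 counts was 0.819, 0.700 and 0.304 in KO 1, KO 2 and KO 3, against 0.312, 0.467 and 0.391 in control 1, control 2 and control 3. So the ratio was highest in KO 1 and KO 2 and lowest in KO 3, and the groups overlapped. Of the 50-base windows of Hspd1, 44.8% also occur in other annotated genes, mostly in the pseudogene Hspd1-ps3, and so do 36.1% of those of Hspe1.

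**Figure D2:**
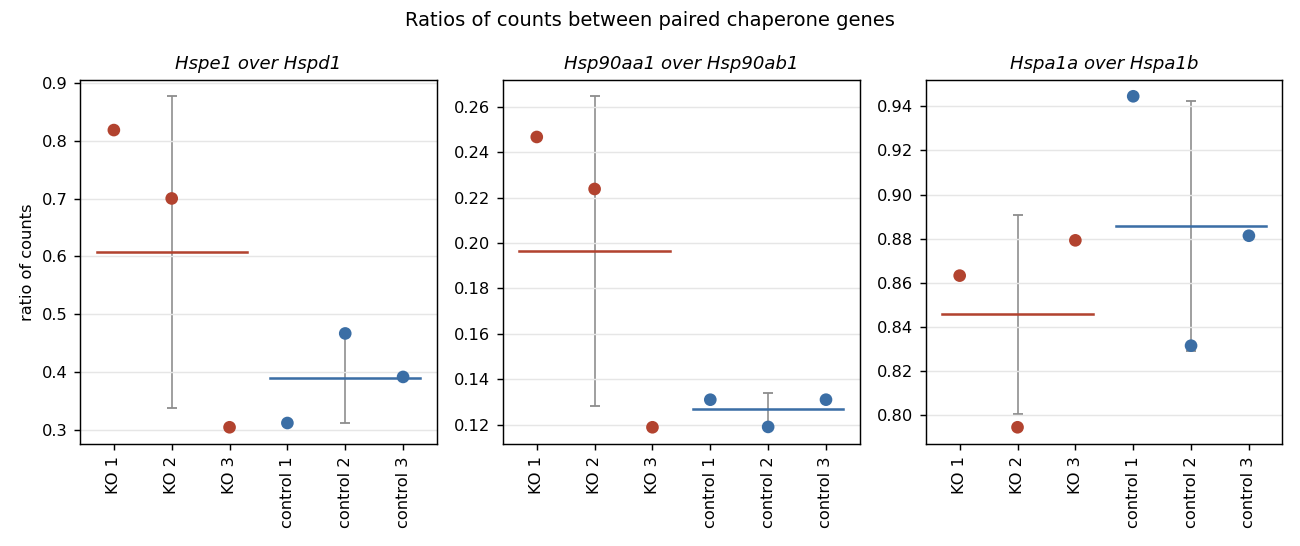
Ratio of counts (vertical axes, which do not start at 0) between related members, in every library (horizontal axes; KO in red, control in blue), with the group mean as a line and its SD as a grey bar (n = 3 each). KO 1 and KO 2 stand above the other libraries for Hspe1 over Hspd1 (0.819 and 0.700) and for Hsp90aa1 over Hsp90ab1 (0.247 and 0.224), and not for Hspa1a over Hspa1b.

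Hspb1 (Hsp27 in human, Hsp25 in mouse), a small heat shock protein that holds unfolded proteins without using ATP, was barely expressed. It had 14, 57 and 1 counts in KO 1, KO 2 and KO 3, against 5, 11 and 10 counts in control 1, control 2 and control 3. KO 2 was the highest and KO 3, with 1 count, the lowest. The log2 fold change was 1.68 ± 0.98 (SE; adjusted p 0.9995 in edgeR), and 2.24 ± 0.62 (SE; adjusted p 0.507) without KO 3. Without KO 2 it was 0.14. The pseudogene Hsp25-ps1 shares 51.6% of its 50-base windows.

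Per length, on the deposited FPKM scale, the 10 genes spanned a wide range of levels. Hsp90ab1 was the most abundant in each of the 6 libraries, at 884 ± 93.3 FPKM in KO and 834 ± 26.8 FPKM in control libraries (SD, n = 3 each), and Hspb1 the least abundant in each. In control 1, control 2, control 3 and KO 3 the second was Hspa8, at 197, 180, 178 and 179 FPKM. In KO 1 and KO 2 the second was Hspa1b, at 323 and 497 FPKM. Below Hspa8, the control means were 80.7 ± 2.21 FPKM for Hsp90aa1, 70.1 ± 18.3 for Dnajb1, 64.0 ± 8.60 for Hspd1, 53.8 ± 24.6 for Hspa1b, 44.3 ± 18.3 for Hspa1a and 43.9 ± 3.23 for Hspe1 (SD, n = 3), and neighbours in this order overlapped. Hsph1 followed at 20.8 ± 8.22 FPKM in control libraries, with a range that overlapped that of Hspa1a. In KO 1 and KO 2, Hsph1 reached 91.8 and 177 FPKM.

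Over the 10 genes, all 10 had a positive log2 fold change, against 50.2% of all genes tested, and the median was 1.18, against 0.00 for all genes. At least 2 of the 3 KO libraries lay above every control library for 9 of the 10 genes, against 17.5% of all genes tested. This count mirrors the pattern already seen in KO 1 and KO 2, so it is a description only. The 9 include Hspa1a and Hspa1b, best read as 1 signal, and Hspb1, at 14 and 57 counts. They also include Hsp90ab1, where the 2 libraries were KO 2 and KO 3. Every KO library above every control library was seen for 0 of the 10, against 3.43%. Without KO 3, the members that passed the threshold in edgeR were Hsp90aa1 and Hspe1, where 3 genes in all (0.0222%) were higher among 13539 tested. The third was Dnaja1. That fit kept control 3, the library of equal number. Without both libraries of number 3, a choice made after seeing the data, these calls were lost, with adjusted p of 0.146 for Hsp90aa1, 0.107 for Hspe1 and 0.181 for Dnaja1 in edgeR. Leaving out any other single library called 0 of the 10, and the median of the members then lay between 0.62 (without KO 2) and 1.29, with 1.55 when KO 3 was left out.

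**Figure D3:**
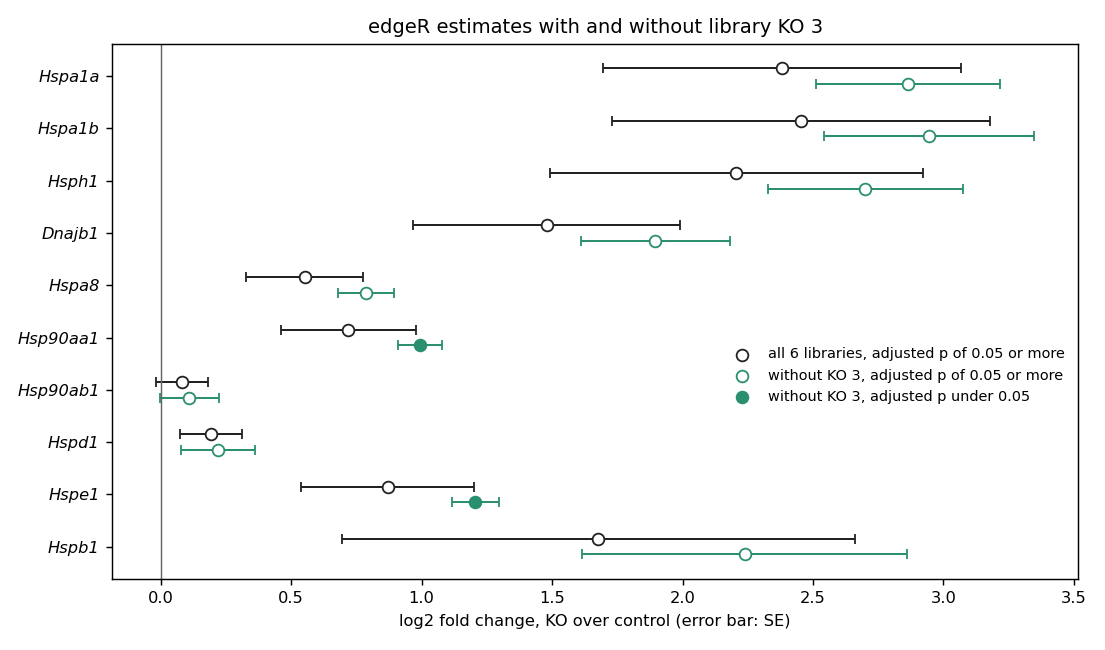
Log2 fold change of KO over control (horizontal axis, bars show the SE) for each of the 10 genes (vertical axis) from edgeR on all 6 libraries (black) and without KO 3 (green), with filled points for an adjusted p under 0.05. Without KO 3 the error bars are narrower for most genes, and Hsp90aa1 and Hspe1 pass the threshold, which they do not with all libraries or without both libraries of number 3.

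Numbers 1 to 3 are used in each group, but what libraries of equal number have in common is unstated in the labels. Within pairs of equal number, the log2 ratio of KO over control for Hspa1a was 3.50, 2.65 and -0.06 in pairs 1, 2 and 3. It was 2.89, 2.59 and -0.19 for Hsph1, 1.89, 1.95 and -0.16 for Dnajb1, and 1.30, 1.07 and -0.16 for Hspe1. The median over the 10 genes was 1.45, 1.52 and -0.07 in pairs 1, 2 and 3, against medians within 0.01 of 0 over all genes tested. Pairs 1 and 2 were thus alike and pair 3 showed differences near 0. With the replicate number as a block in edgeR, 0 of the 10 passed, with adjusted p between 0.326 and 0.840, while 180 of 13217 genes (1.36%) did. A test of the replicate number itself, with the group as a term, called 733 genes (5.55%) and 0 of the 10, with adjusted p between 0.241 and 0.700 in edgeR.

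**Figure D4:**
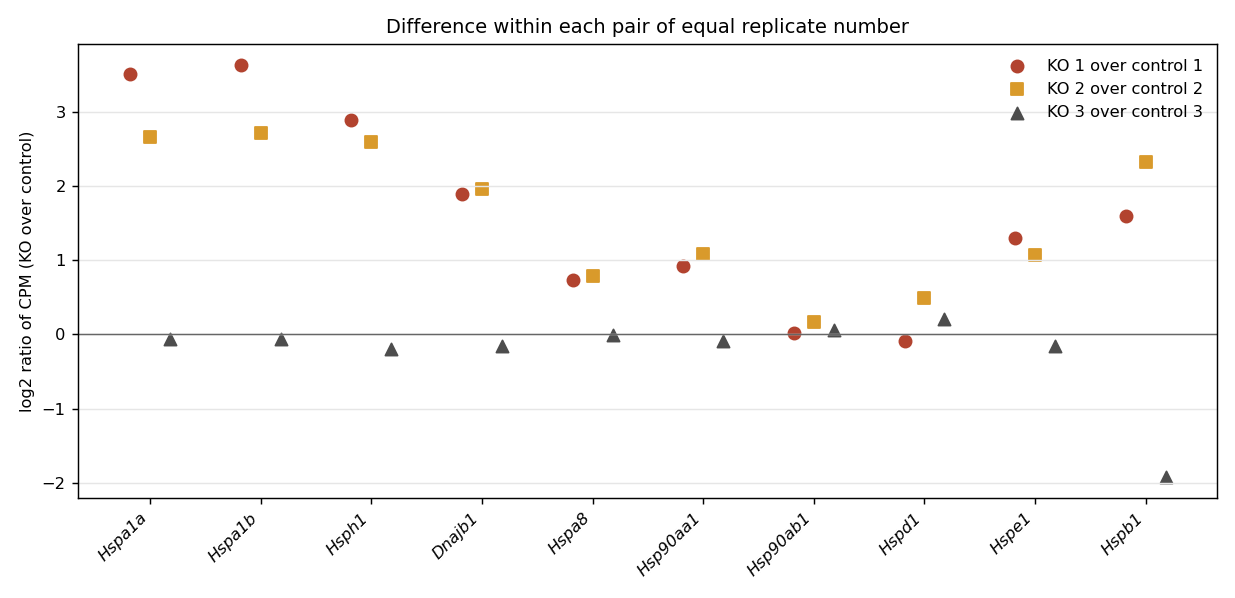
Log2 ratio of CPM, KO over control (vertical axis), for each of the 10 genes (horizontal axis) within the 3 pairs of equal replicate number. Pairs 1 and 2 lie well above 0 for all genes but Hsp90ab1 and Hspd1, and pair 3 lies near 0 for all but Hspb1, which rests on 1 count in KO 3.

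Of the 10 genes, 7 had a promoter window in RefSeq (GRCm38.p6, 250 bases before to 50 after the start): Hspa1a, Hspa1b, Hsph1, Dnajb1, Hspd1, Hspe1 and Hspb1. GAANNTTC or TTCNNGAA, each of which reads the same on both strands and which can overlap by 3 bases, occurred in 6 of these 7, against 17% of the 27025 genes with a window of 300 bases. The longer GAANNTTCNNGAA or TTCNNGAANNTTC, the same motif on opposite strands, occurred in Hspd1, Hspe1 and Hsph1, against 0.662% of all genes. Besides the promoters printed above, the matches of Hsph1 (chr5:149636345-149636374 and chr5:149636287-149636306, minus strand, both in annotated exons) and of Hspb1 (chr5:135887801-135887830, plus strand) are shown with the matches in capitals.
Hsph1, first window: aatctTTCTCGAAggctcgagaagaaggaa
Hsph1, second window: tgcagaTTCTGGAAAGTTCt
Hspb1: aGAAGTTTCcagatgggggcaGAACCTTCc
A match is a string of letters, not a measured binding site. Hspd1 and Hspe1 share the same element, and their difference between groups was 0.19 and 0.87 on the log2 scale. Dnajb1 had no match in its window.

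Genes whose log2 CPM followed the summed counts of Hspa1a and Hspa1b most closely over the 6 libraries were ranked by the root mean square difference of the centred values, among 10306 genes with a mean log2 CPM of at least 3. Apart from the pair itself, the nearest were the members Hsph1 (0.23) and Dnajb1 (0.55). Hspe1 ranked 8, Hsp90aa1 14 and Hspa8 29, whereas Hsp90ab1 and Hspd1 ranked 2374 and 2451. Genes chosen in this way are bound to be high in KO 1 and KO 2, so their levels are given as a description. The 5 nearest genes outside the 10 were Snord14c (0.73), Snord14d (0.76), Snord14e (0.88), Dnaja1 (0.93) and Cacnb3 (0.98).

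Snord14c, Snord14d and Snord14e are small nucleolar RNAs that lie in introns 5, 6 and 8 of Hspa8, on its strand. Snord14c had 43.1, 39.2 and 13.0 CPM in KO 1, KO 2 and KO 3, against 9.995, 13.9 and 19.1 CPM in control 1, control 2 and control 3. Snord14d had 49.8, 41.3 and 13.6 CPM in KO 1, KO 2 and KO 3, against 11.4, 14.4 and 22.8 CPM in control 1, control 2 and control 3. Snord14e had 36.3, 33.2 and 11.99 CPM in KO 1, KO 2 and KO 3, against 12.2, 11.0 and 18.2 CPM in control 1, control 2 and control 3. All 3 were highest in KO 1 and KO 2, which the choice by profile fixed. Reads from an unspliced Hspa8 transcript and reads from the small RNAs themselves cannot be told apart in these counts.

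**Figure D5:**
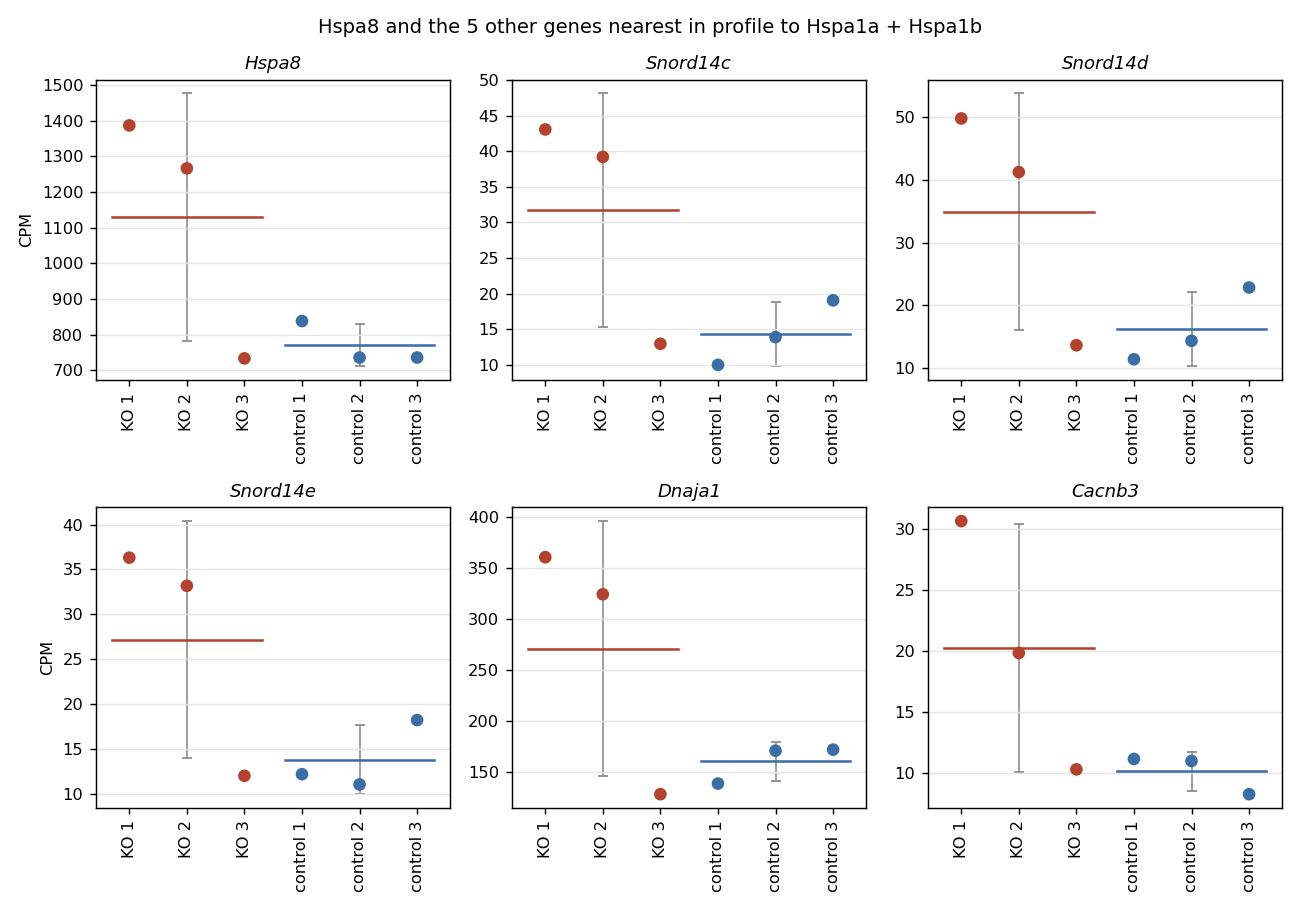
Level in CPM (vertical axes, which differ and do not start at 0) of Hspa8 and of the 5 genes outside the 10 whose profile lay nearest to that of Hspa1a plus Hspa1b, in every library (horizontal axes; KO in red, control in blue), with the group mean as a line and its SD as a grey bar (n = 3 each). In each panel KO 1 and KO 2 lie above every other library, while KO 3 is at or near the control levels, as the choice by profile leads to for the 5 genes.

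Dnaja1, an Hsp40 co-chaperone of Hspa8, had 360, 324 and 128 CPM in KO 1, KO 2 and KO 3, against 139, 171 and 172 CPM in control 1, control 2 and control 3. KO 1 and KO 2 were the highest and KO 3 the lowest. Its log2 fold change was 0.75 ± 0.34 (SE; adjusted p 0.9995 in edgeR), with 1.09 ± 0.12 (SE; adjusted p 0.0436) without KO 3 and 1.15 (adjusted p 0.181) without both libraries of number 3. Cacnb3, a subunit of voltage-gated calcium channels, had 30.6, 19.9 and 10.3 CPM in KO 1, KO 2 and KO 3, against 11.2, 11.0 and 8.31 CPM in control 1, control 2 and control 3.

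Other chaperone genes were read against the same fits. Of 23 co-chaperones of Hsp70 and Hsp90, 0 passed in either direction, 9 had a positive fold change and the median log2 fold change was -0.02. At least 2 of the 3 KO libraries lay above every control library for 3 of the 23 (13.0%), near the 17.5% of all genes. After Dnaja1, the smallest p-values belonged to Hspa4l, a relative of Hsph1 (-0.24), and Fkbp4, an Hsp90 partner (-0.15). Dnajb4, another Hsp40, was the 1 co-chaperone that varied with the replicate number (adjusted p 0.0186 in edgeR), with 53.5, 133 and 60.8 CPM in KO 1, KO 2 and KO 3, against 37.8, 74.9 and 54.2 CPM in control 1, control 2 and control 3. Bag3, a nucleotide exchange factor, came next for the replicate number without passing (adjusted p 0.0862), at 7.66, 11.5 and 4.82 CPM in KO 1, KO 2 and KO 3, against 5.98, 7.92 and 4.52 CPM in control 1, control 2 and control 3. All 8 subunits of the cytosolic chaperonin TRiC were tested and 0 passed, with a median of -0.0028 and Tcp1, Cct2 and Cct5 at 0.03, 0.02 and 0.02. Of 11 other mitochondrial chaperones and proteases, 0 passed and 2 had a positive fold change, with a median of -0.04, and Hspa9, the Hsp70 of the matrix, at -0.07, Clpp at -0.22 and Lonp1 at -0.08. Without KO 3 the medians were -0.05 for the co-chaperones, -0.02 for TRiC and -0.07 for the mitochondrial list.

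Of 8 heat shock factors and regulators, 5 were tested and 0 passed. Hsf1, the main heat shock factor, had 37.5, 34.0 and 40.1 CPM in KO 1, KO 2 and KO 3, against 36.4, 35.6 and 34.5 CPM in control 1, control 2 and control 3. Its highest library was KO 3 and its lowest KO 2, within a narrow range, so its own RNA did not follow that of its classical targets. The activity of the factor was not measured here. Of 9 other small heat shock proteins 2 were tested, Hspb6 at 0.22 and Hspb11 at -0.02 on the log2 scale, and 0 passed.

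Genes of other stress programs were set beside the chaperones. Of 15 endoplasmic reticulum chaperones 0 passed in edgeR, with a median log2 fold change of -0.09 (-0.05 without KO 3). With the replicate block Creld2, which is induced by unfolded proteins in that compartment, fell by 0.71 ± 0.09 on the log2 scale (SE), where edgeR gave adjusted p of 0.0142 with and 0.228 without that block, and DESeq2 gave 0.00921 with no block. Creld2 had 48.7, 41.1 and 44.7 CPM in KO 1, KO 2 and KO 3, against 89.5, 65.6 and 66.2 CPM in control 1, control 2 and control 3, without overlap. In this list 4 genes varied with the replicate number, among them Sdf2l1, Pdia3 and Hspa5, the Hsp70 of that compartment (adjusted p 0.0131, 0.0257 and 0.0443 in edgeR), and Hspa5 had 1820, 1578 and 1159 CPM in KO 1, KO 2 and KO 3, against 1747, 1393 and 1181 CPM in control 1, control 2 and control 3. Of 11 oxidative and metal stress genes 0 passed between the groups, with a median of -0.05 (-0.16 without KO 3), and Nqo1 and Gclm varied with the replicate number (adjusted p 0.0133 and 0.0224 in edgeR).

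Immediate-early genes, which respond within minutes to handling and to growth factors, were positive in fold change for 18 of 22, at a median of 0.21 on the log2 scale (0.35 without KO 3), and 0 passed. The smallest p-values were those of Gadd45b (0.59), Atf3 (0.48) and Btg2 (0.41). After centring each gene on its 6-library mean, their median was 0.15, 0.25 and -0.11 in KO 1, KO 2 and KO 3, against -0.30, 0.27 and -0.31 in control 1, control 2 and control 3. The corresponding medians of the 10 chaperone genes were 0.76, 1.22 and -0.61 in KO 1, KO 2 and KO 3, against -0.69, -0.31 and -0.36 in control 1, control 2 and control 3. Control 2 was thus as high as KO 2 in the immediate-early genes but not in the chaperone genes. Egr1, Ier2 and Socs3 varied with the replicate number (adjusted p 0.0110, 0.0341 and 0.0404 in edgeR). The part of handling in the chaperone levels was not tested, since the labels give no time or temperature of the sort.

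Markers of other blood cells that the sort could have let through were summed in each library. The 11 macrophage genes had 855, 271 and 374 CPM in KO 1, KO 2 and KO 3, against 1075, 205 and 229 CPM in control 1, control 2 and control 3, so both libraries of number 1 were high while the chaperones were high in KO 1 and KO 2. The 7 dendritic cell genes had 963, 578 and 530 CPM in KO 1, KO 2 and KO 3, against 584 to 625 CPM in the control libraries. They include Flt3, also counted for the sorted fraction, at 237 to 261 CPM in KO and 205 to 287 CPM in control libraries. Every other gene of this list was highest in KO 1, among them Clec9a at 331 CPM. The 9 plasma and mature B cell genes had 694 to 1763 CPM in KO and 3070 to 4432 CPM in control libraries, without overlap, and the 7 T and NK cell genes 61.8 to 86.3 CPM in KO and 96.6 to 98.1 CPM in control libraries, also without overlap. The 9 neutrophil genes had 1793 to 2521 CPM in KO and 2115 to 2941 CPM in control libraries. Most of that sum was Mpo, at 1310, 1766 and 1928 CPM in KO 1, KO 2 and KO 3. Mpo and Elane overlapped between the groups. S100a8, S100a9, Camp, Ngp, Ltf, Retnlg and Ly6g were each lower in every KO library than in every control library. Ly6g had 2 counts in each KO library, under the limit of 3 counts. Over all genes tested, 633 of 13217 were lower in KO without overlap. The 8 erythroid genes had 118 to 221 CPM in KO and 179 to 277 CPM in control libraries. Car2 made up most of this sum, at 67.0 and 105 CPM in KO 1 and control 1 and 186 to 263 CPM elsewhere. The globin genes Hba-a1, Hba-a2, Hbb-bs and Hbb-bt were instead highest in KO 1 and control 1. Hbb-bs had 27.4 and 36.5 CPM in KO 1 and control 1, and 0.641 to 3.17 CPM in the other libraries. Hba-a1 and Hba-a2 were at 0 in at least 1 library and no other marker was at 0. None of these markers passed the threshold, and their part in the chaperone levels was not tested.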

How the data were processed

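RNA-seq was done on Lin- Sca1+ cKit+ bone marrow cells of FLT3-ITD miR-155-/- (KO) and FLT3-ITD (control) mice, 3 libraries each, grouped and numbered by the labels. The authors deposited whole-number read counts per gene, not normalized, and beside them FPKM, equal to the count times one factor for the gene and one for the library. Their own comparison was deposited as a log2 fold change and an adjusted p-value per gene. Of 16577 genes with an adjusted p in the authors' deposited table, 106 were under 0.05, 0 of them members, and the members' adjusted p lay between 0.438 and 0.99994. Per the submitters' processing notes, the tools were Novoalign 2.08.01 and DESeq2 1.10.1 on the mm10 build. How reads were assigned to genes, by which annotation and with or without strand, was not given in the sources used.

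Counts were fitted with edgeR 4.0.16 in R 4.3.3 (TMM, filterByExpr with a minimum count of 10 and a minimum total of 15, a 2-sided quasi-likelihood test with the group as the single term, Benjamini-Hochberg over 13217 genes, threshold 0.05). The test of the replicate number used the number and the group. Log2 CPM used a prior count of 2. Symbols were those of the table, which gave none for 311 of 22475 genes, and 21966 identifiers matched GENCODE M21 (GRCm38, the assembly of mm10), used for positions and shared 50-base windows. Totals were 6843129 to 9443615 counts per library, and the limit of 3 counts covers counting error only.

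Across genes, the deviations of equally numbered libraries from their group means had r = 0.57, 0.53 and 0.22 for numbers 1, 2 and 3, all above 0.1. KO 2 with control 3 had r = 0.13, also above 0.1, so that limit alone does not single out equal numbers. Differences within pairs of equal number are given from the data and not from a stated litter or day. The main fit, with the group as the single term, does not use the pairs. Alternatives were the replicate block, no filter, a minimum count of 30, RLE size factors, DESeq2 1.42.0, limma-voom 3.58.1, Hspa1a and Hspa1b summed, and each library left out. Leaving out both libraries of a number was chosen after seeing the data. The genes named are the 10 members, the up to 3 genes of each list with the smallest p for the group and for the replicate number, and the 5 genes nearest to Hspa1a plus Hspa1b. A gene named by the list rule is not reported. The members and lists were chosen with earlier results of these data known.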

Additional observations from a re-analysis of the deposited data

How the results depend on the processing

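The number of members past the threshold was 0 with edgeR on all 6 libraries and 0 under every alternative except 1: without KO 3 it was 2, so that leaving out single libraries gave 0 to 2. With DESeq2 the lowest adjusted p of a member was 0.340. Every member that was fitted had a positive fold change under each alternative listed; 9 were fitted with the minimum count of 30 and without both libraries of number 2, where Hspb1 did not pass the filter, and with Hspa1a and Hspa1b summed. The median log2 fold change of the members lay between 0.62 and 1.55 when single libraries were left out, lowest without KO 2 and highest without KO 3, and was 0.69 with limma-voom.

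The count of genes past the threshold moved more. It was 21 with edgeR on all libraries, 180 with the replicate block, 97 with no filter on low counts and 131 with DESeq2. It lay between 0 and 27 when single libraries were left out (0 without control 1 or control 3), and was 10 and 6 without both libraries of number 2 and of number 3. The block, which pairs libraries of equal number, reduced the residual degrees of freedom to 2, against 4 with the group alone. It changed no call of a member. The 733 genes that varied with the replicate number became 130 without a group term and 1696 with no filter, and 0 members passed under any alternative of that test. The causes of these shifts were not tested.

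With 3 pools a group, the wide spread among KO libraries limits what a test can call. For Hspb1, depth is the limit as well.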
